A study of Mus musculus with 4 samples.

Results

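The genes described here are 9 leukocyte adhesion molecules, chosen by their symbols in the deposited gene tables: the selectin ligand gene Selplg, the hyaluronan receptor gene Cd44, the integrin chain genes Itgb2, Itgam, Itgal, Itgax, Itga4 and Itgb7, and the integrin counter-receptor gene Icam1. All 9 were found among 31053 listed genes, each as 1 row, and 78 further adhesion genes were set beside them. They were followed through single-cell RNA libraries of CD45+ cells from skin wounds of C57BL6/J mice. The wounds were 3 mm excisions made with a biopsy punch in mice that were either wild-type (Angptl4+/+) or lacked Angptl4 in the whole body (Angptl4-/-), and the tissue was taken 1 or 5 days post-wounding (dpw). The study's methods give male mice of 8 weeks. They name different sources for the wild-type (Invivos) and the Angptl4-/- mice (Mutant Mouse Regional Resource Center), so source cannot be told apart from genotype. Live CD45+ cells that excluded propidium iodide were sorted, so keratinocytes, fibroblasts and endothelial cells were mostly removed, and the cells were run on 10x Chromium 3′ chemistry. Each of the 4 conditions was 1 library, and how many mice went into a library is not given in the sources used here.

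Leukocytes leave the blood in steps. PSGL-1, the product of Selplg, binds selectins on activated endothelium so that the cell rolls, and integrins switched on by chemokines then arrest it on counter-receptors such as ICAM-1 and VCAM-1. Integrins work as pairs of an alpha and a beta chain: the beta chain of Itgb2 joins the alpha chain of Itgal to form LFA-1, that of Itgam to form Mac-1 and that of Itgax to form p150,95, while the alpha chain of Itga4 joins that of Itgb1 to form VLA-4 or that of Itgb7 to form the integrin known for homing to gut. CD44 binds hyaluronan of the matrix, and in wounds these molecules are known for bringing neutrophils in early and monocytes later.

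The 4 libraries held 20069 barcodes, and 19827 cells passed the filters. Totals per library ran from 26981596 to 32962595 UMIs (molecule counts), with a median of 3735.5 to 4975.5 UMIs per passing cell. Libraries shared 5 to 15 barcodes per pair, at most 0.311% of the smaller library. Angptl4 itself had 47 UMIs in the Angptl4+/+ 1 dpw library and 78 in the Angptl4+/+ 5 dpw library, and 0 in each Angptl4-/- library. Ptprc, which encodes CD45, had 122173 UMIs over the 5 larger classes. Cells were clustered without the adhesion genes and named from markers. The 13782 neutrophil-like cells were 72.7%, 54.5%, 77.1% and 73.9% of the 4 libraries, and the 4209 macrophage-like cells 21.6%, 31.5%, 17.6% and 13.7%. Where 4 values follow each other like this, they stand for Angptl4+/+ 1 dpw, Angptl4+/+ 5 dpw, Angptl4-/- 1 dpw and Angptl4-/- 5 dpw. Fewer cells were monocyte-like (552), dendritic cell-like (711) or of the mixed NK cell/T cell-like class (518), and the 55 B cell-like cells were too few to describe. Genes of mast cells were found in macrophage-like cells at 0, 5.03, 0 and 245 CPM (counts per 1000000 UMIs) for the 5 genes together. Nearly all red cell UMIs of neutrophil-like cells lay in the Angptl4-/- 5 dpw library, 13785 of 13864 in 1 cell. In the 5 classes, summed marker genes of keratinocytes reached at most 17.0 CPM, those of fibroblasts 8.81 and those of endothelial cells 48.9. For 4 platelet genes the macrophage-like sums were 2652, 871, 2023 and 1570, all from 2 of the genes. No member's call in macrophage-like cells changed when cells with mast cell or basophil genes were left out, and the part of the other cells in the results was not tested.

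Levels are the UMIs of a gene per 1000000 UMIs of a class in a library (CPM), with exact Poisson 95% intervals. The chemistry counts 3′ ends, so levels were not divided by gene length, and capture can still differ from gene to gene. Differences are log2 ratios of CPM with exact binomial 95% intervals, given in brackets. All intervals cover counting error only. With 1 library per condition there was no test, and differences between mice or batches cannot be told apart from genotype and day. A gene was called where its log2 ratio was at least 0.5 in size with an interval on 1 side of 0 and the 2 sums compared held at least 100 UMIs together, and "rose" and "fell" are used in that sense only.

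On GRCm38 the members lay on 6 chromosomes. Itgal (chr7:127296260-127335138), Itgam (chr7:128062640-128118491) and Itgax (chr7:128129547-128150657) lay together on the plus strand of chromosome 7, and Itgb2 (chr10:77530252-77565708), Icam1 (chr9:21015985-21028817) and Itga4 (chr2:79255426-79333123) were also on the plus strand of theirs. The minus strand held Cd44 (chr2:102811141-102901665), Selplg (chr5:113818536-113832644) and Itgb7 (chr15:102215995-102231944). The integrin alpha genes had 28 to 32 exons in the transcript with most exons, and Selplg had 2.

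**Figure D1:**
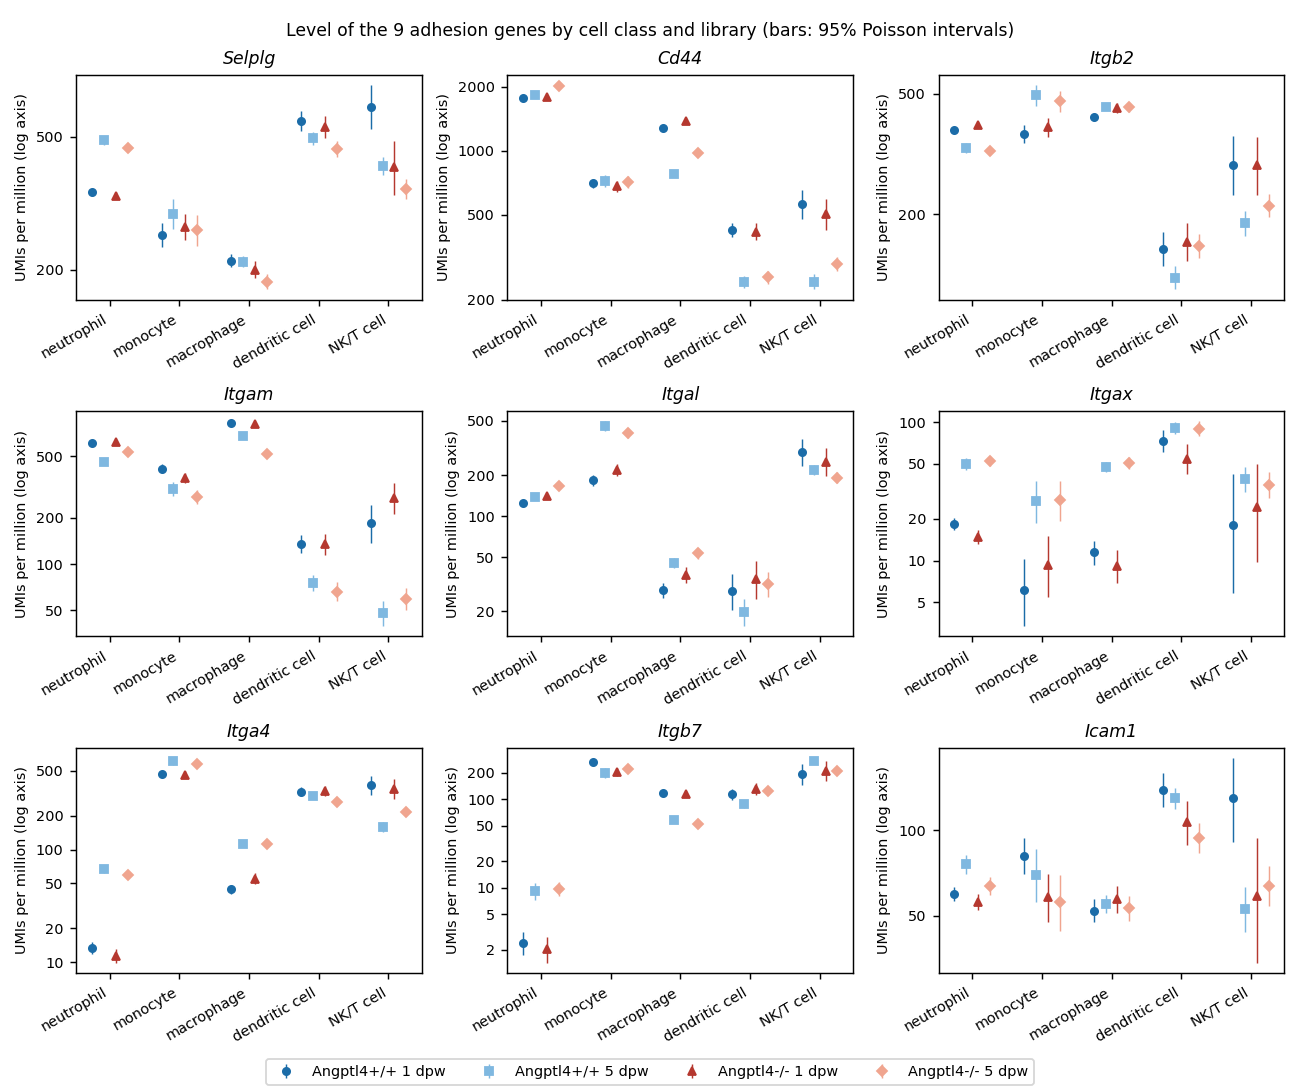
Level of each member, in CPM on a log axis, in 5 cell classes of the 4 libraries; points are class sums (the suffix -like is left off) and bars exact Poisson 95% intervals. Cd44 was highest in neutrophil-like cells in every library, Itga4 in monocyte-like cells, and Itgb7 was lowest in neutrophil-like cells.

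Among the genes of first contact, Selplg was found in all 5 classes. Dendritic cell-like cells had 557, 494, 534 and 459.7 CPM, and neutrophil-like cells 340.4, 487, 333 and 461 CPM. Macrophage-like cells were lowest, at 213, 211, 199.8 and 184 CPM, and none of their libraries reached a monocyte-like one (253 to 294 CPM). Levels in dendritic cell-like cells overlapped with those in neutrophil-like cells and with the 348 to 615 CPM of NK cell/T cell-like cells.

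Cd44 was the most abundant member in neutrophil-like cells, with 1777, 1829.6, 1786 and 2021 CPM. Macrophage-like cells came next with 1276, 777, 1379 and 980.3 CPM. Monocyte-like cells held 681 to 724 CPM, and NK cell/T cell-like and dendritic cell-like cells overlapped at 242 to 561 CPM. The first 3 classes did not overlap with each other in any library.

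Itgb2, the shared beta chain, had similar levels in the phagocyte classes. Its level was 379.6, 332, 394 and 323 CPM in neutrophil-like, 419.7, 452, 449 and 450.4 CPM in macrophage-like and 368, 495, 387 and 471 CPM in monocyte-like cells. Dendritic cell-like cells had 124 to 162 CPM, below every other class.

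Its alpha partners were divided among the classes. Itgam, the alpha chain of the complement receptor Mac-1, stood at 819.8, 672, 802 and 516 CPM in macrophage-like and 610.4, 458, 621 and 528 CPM in neutrophil-like cells. Those ranges overlapped, and monocyte-like cells lay below both at 272 to 415 CPM. Itgal, the alpha chain of LFA-1, had its highest levels in monocyte-like cells (182, 456, 217 and 409 CPM) and NK cell/T cell-like cells (295, 217, 249 and 191 CPM), and only 28.5 to 53.3 CPM in macrophage-like cells. Itgax, which encodes CD11c and is widely used as a dendritic cell marker, was highest in dendritic cell-like cells with 73.4, 90.8, 54.6 and 89.9 CPM. Neutrophil-like cells had 18.4, 49.8, 14.8 and 52.6 CPM and overlapped with the NK cell/T cell-like, macrophage-like and monocyte-like cells below them.

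Itgam and Itgax are neighbours with different patterns over these classes, so the 250 bases before each RefSeq start site are shown, from RefSeq on GRCm38.p6, plus strand, 5′ to 3′. Promoter sequence was at hand for 6 of the 9 members, not Selplg, Itgal or Itgb2. Capitals mark GAGGAA on either strand (a core bound by the myeloid factor PU.1) in Itgam, and TGACTCA on either strand (an AP-1 site) in Itgax.

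Itgam (chr7:128062390-128062639): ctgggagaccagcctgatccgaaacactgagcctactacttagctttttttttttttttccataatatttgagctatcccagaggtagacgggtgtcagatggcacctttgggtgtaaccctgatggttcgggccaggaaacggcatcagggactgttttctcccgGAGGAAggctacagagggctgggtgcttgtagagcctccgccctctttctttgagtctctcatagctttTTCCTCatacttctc

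Itgax (chr7:128129300-128129549): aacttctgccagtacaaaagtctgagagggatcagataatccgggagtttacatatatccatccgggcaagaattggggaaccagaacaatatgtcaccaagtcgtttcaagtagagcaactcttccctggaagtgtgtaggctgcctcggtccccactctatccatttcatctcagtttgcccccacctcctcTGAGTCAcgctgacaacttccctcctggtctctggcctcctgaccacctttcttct

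The Itgam window held GAGGAA at 84 to 79 bases before the start and its reverse complement at 15 to 10 bases. The motif was common, in 23.3% of 32851 mouse promoter windows of that length, Cd44 among them. The Itgax window held TGAGTCA, the reverse complement of TGACTCA, at 56 to 50 bases before the start, a motif of 4.46% of the windows. The motifs were chosen after the levels were seen, and a match only describes the letters.

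The alpha 4 genes were ordered in another way. Itga4 was highest in monocyte-like cells, with 468, 607, 463 and 578 CPM, followed without overlap by dendritic cell-like cells with 327, 300.4, 333 and 264 CPM. NK cell/T cell-like cells, with 374, 160, 346 and 217 CPM, overlapped with the dendritic cell-like cells. Neutrophil-like cells were lowest with 13.3, 66.9, 11.4 and 59.9 CPM, and their range overlapped with macrophage-like cells (44.3, 112, 55.2 and 112 CPM). Itgb7, the partner that makes the gut-homing integrin, had 265, 201, 204 and 222 CPM in monocyte-like and 194, 272, 211 and 211 CPM in NK cell/T cell-like cells. In neutrophil-like cells it was lowest, at 2.39, 9.16, 2.02 and 9.78 CPM, without overlap with any other class.

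Icam1, which is bound by LFA-1 and Mac-1 and is known to be induced by NF-kB, had 139, 129, 107 and 94 CPM in dendritic cell-like cells. In neutrophil-like cells it had 59.8, 75.8, 56 and 63.8 CPM and in macrophage-like cells 52.2, 55.3, 57.2 and 53.1 CPM. Dendritic cell-like cells stood above monocyte-like, neutrophil-like and macrophage-like cells in every library, while NK cell/T cell-like cells (129, 52.8, 58.9 and 63.8 CPM) overlapped with them. Its window before the RefSeq start is shown because Icam1 was split between the neutrophil subsets described further on, with capitals for GGAANTTCC, a form of the NF-kB site.

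Icam1 (chr9:21015690-21015939): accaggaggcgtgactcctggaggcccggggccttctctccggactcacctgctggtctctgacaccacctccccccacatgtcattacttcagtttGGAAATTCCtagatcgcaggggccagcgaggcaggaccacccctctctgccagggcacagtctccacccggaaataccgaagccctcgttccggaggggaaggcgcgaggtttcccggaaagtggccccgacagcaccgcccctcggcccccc

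The match GGAAATTCC lay on the plus strand at chr9:21015787-21015795, 153 to 145 bases before the start. On either strand the motif was found in 267 of 32851 windows (0.813%), and Icam1 was the only 1 of the 6 members with a window that held it.

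Set against macrophage-like cells over all 4 libraries, monocyte-like cells were above in 4 of 9 members (Selplg, Itgal, Itga4, Itgb7), where 18.6% of all genes were, and below in 2 (Cd44, Itgam), where 20.2% were. Dendritic cell-like cells were above in 4 (Selplg, Itgax, Itga4, Icam1; 18.8% of all genes) and below in 3 (Cd44, Itgb2, Itgam; 22.2%). Neutrophil-like cells were above in 3 (Selplg, Cd44, Itgal; 14.4% of all genes) and below in 2 (Itgb2, Itgb7; 61.4%). Without integration of the libraries Cd44 of monocyte-like cells was no longer below. Their Icam1 was above in that setting and also with doublets left out. At clustering resolution 1.0 Itgax of dendritic cell-like cells was no longer above. The neutrophil-like order depended on scaling, because with trimmed-mean (TMM) factors neutrophil-like cells were above in 6 members, Itgb2 among them, and below in Itgb7 only.

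Integrin chains work only in pairs, so the counts of partner chains were compared within each class. Of the UMIs of Itgam, Itgal and Itgax together, Itgam made up 83.2% to 95.4% in macrophage-like and 70.8% to 81% in neutrophil-like cells. Itgal made up 46.2% to 71.4% in NK cell/T cell-like cells, and in monocyte-like cells it went from 30.2% and 37% at 1 dpw to 57.8% in both genotypes at 5 dpw. Itgax took 24.4% to 48.8% in dendritic cell-like cells and at most 12.8% elsewhere. The 3 alpha chains summed to 1.19 to 2.31 UMIs per Itgb2 UMI over all classes and libraries. Itgad, the alpha chain gene next to Itgax in the same family, had at most 6 UMIs in any class of a library.

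Cells carrying both chains were counted after each cell was thinned to 1000 UMIs, which left out 442 shallower cells. Both Itgam and Itgb2 were seen in 13.6% to 21.7% of macrophage-like and 10.4% to 13.1% of neutrophil-like cells (73.3% to 86.3% and 41.1% to 69% unthinned). Dendritic cell-like cells had both in 0% to 1.30% of cells (28.6% to 37.9% unthinned). In B cell-like cells, which should lack Itgam, 1 of 27 cells in 1 library and none in the others had an Itgam UMI after thinning. Both Itgal and Itgb2 were seen in 6.25% to 18.4% of monocyte-like cells, against at most 2.25% of macrophage-like cells. Unthinned, these shares were 78.8% to 83.8% and 12.7% to 27.4%. Itga4 with Itgb1 was seen in 5.19% to 15.8% of monocyte-like cells, and Itga4 with Itgb7 in 3.91% to 9.74% (79.6% to 85.7% and 67.2% to 83.8% unthinned). In neutrophil-like cells the thinned shares of these 2 pairs were at most 0.503% and 0.264% (3.08% and 0.914% unthinned). Thinned shares of pairs depend on how often each gene was detected. Itgam with Itgb2 had 12.5% in Angptl4+/+ 1 dpw neutrophil-like cells, beside 12.6% for the product of the 2 single-gene shares. Itgal with Itgb2 had 6.49% and 18.4% in Angptl4+/+ monocyte-like cells at 1 and 5 dpw, beside products of 6.11% and 14.1%. Itga4 UMIs outnumbered Itgb7 UMIs 5.57 to 7.3 times in neutrophil-like and 1.77 to 3.02 times in monocyte-like cells.

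Between 1 and 5 dpw, neutrophil-like cells had higher levels of 3 integrin chains that were low at 1 dpw, Itga4, Itgax and Itgb7. Itga4 rose from 13.3 to 66.9 CPM in Angptl4+/+ (log2 ratio 2.33 [2.11, 2.54]) and from 11.4 to 59.9 CPM in Angptl4-/- wounds (2.39 [2.17, 2.62]). Itgax rose from 18.4 to 49.8 CPM (1.44 [1.23, 1.64]) and from 14.8 to 52.6 CPM (1.82 [1.62, 2.03]). Itgb7 rose from 2.39 to 9.16 CPM (1.94 [1.40, 2.49]) and from 2.02 to 9.78 CPM (2.28 [1.73, 2.85]), on 37 to 120 UMIs per library. For each of these genes both 5 dpw libraries lay above both 1 dpw libraries.

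On the CPM scale the classical neutrophil adhesion genes moved little. Selplg had log2 ratios of 0.52 [0.46, 0.57], just past the threshold, and 0.47 [0.42, 0.52], just under it. Itgam had -0.41 and -0.23, and Itgb2 -0.19 and -0.29. Cd44 (0.04 and 0.18), Itgal (0.15 and 0.24) and Icam1 (0.34 and 0.19) stayed under the threshold as well. Selplg, Cd44, Itgam, Itgb2 and Icam1 had 5 dpw levels that all lay on 1 side of the 1 dpw levels.

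In all, 4 of 9 members rose in Angptl4+/+ neutrophil-like cells (Selplg, Itgax, Itga4, Itgb7), where 58.7% of 6601 genes rose, and 3 of 9 in Angptl4-/- cells (Itgax, Itga4, Itgb7), where 60.5% did. None fell, beside 5.50% and 4.89% of all genes. The members' median log2 ratios were 0.34 and 0.24, under the all-gene medians of 0.65 and 0.68. Total UMIs per cell were lower at 5 dpw (class medians of 4683, 3218, 4636.5 and 3392), and their part in these ratios was not tested. The scale matters here, since TMM factors brought the all-gene medians to -0.11 in both genotypes. With TMM 18.6% and 19.3% of genes were higher and 27.7% and 27.8% lower. On that scale Itga4 (1.57 and 1.60), Itgax (0.68 and 1.03) and Itgb7 (1.18 and 1.48) still rose, but the Selplg ratio turned to -0.24 and -0.33, and Cd44, Itgal and Icam1 turned negative too. Under TMM 4 members fell in Angptl4+/+ (Cd44, Itgb2, Itgam, Itgal) and 5 in Angptl4-/- cells (these and Icam1). The TMM ratios were -1.18 and -1.03 for Itgam and -0.96 and -1.08 for Itgb2.

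**Figure D2:**
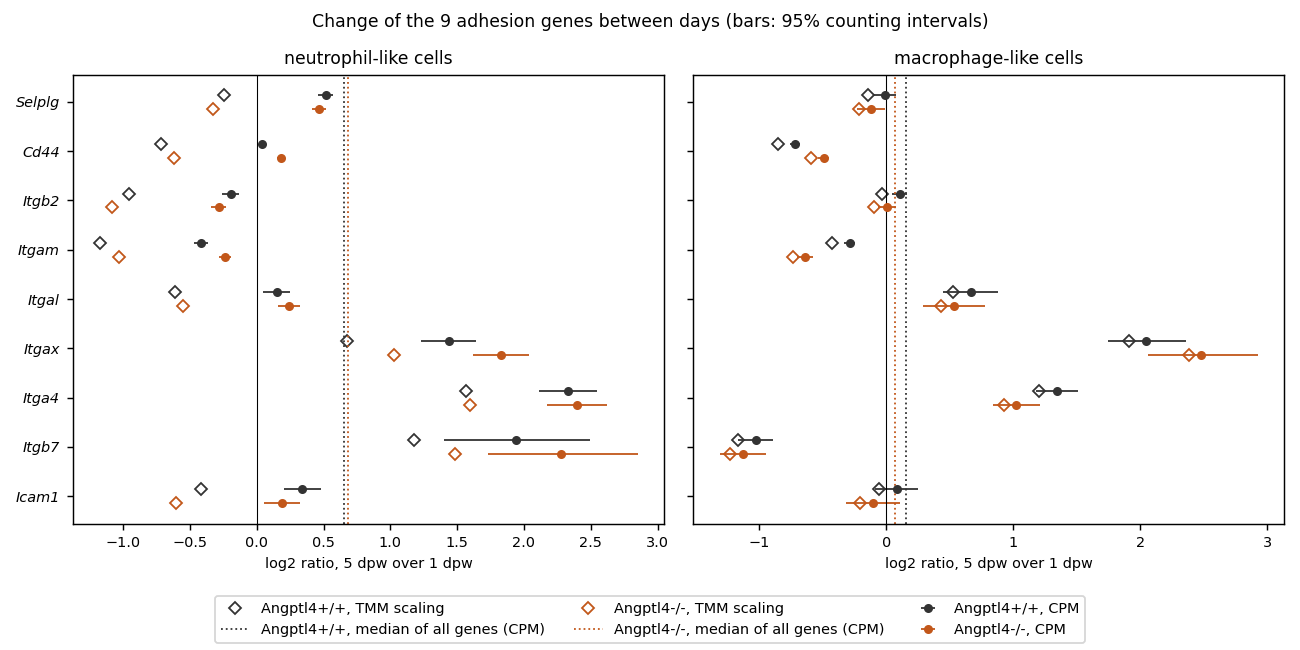
Log2 ratio of CPM at 5 dpw over 1 dpw for each member in neutrophil-like and macrophage-like cells of both genotypes; filled points with bars are CPM ratios with 95% counting intervals, open points the TMM-scaled ratios, and dotted lines the medians of all genes. Itga4 and Itgax lay above 0 in both classes on both scales, while Itgb7 lay above 0 in neutrophil-like and below 0 in macrophage-like cells.

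Itga4 and Itgax were higher at 5 dpw in 6 of 6 neutrophil-like clusters in both genotypes, and Itgb7 in 5 of 6 in Angptl4+/+ and 6 of 6 in Angptl4-/- wounds. So was Selplg in 6 of 6 clusters in both genotypes, although its class ratio turned negative with TMM. Cluster ratios are on the CPM scale, and for single clusters the share of all genes was not computed. The smallest clusters added little: 1 had 0 Itga4 UMIs at 1 dpw in Angptl4+/+, another had 11 and 6 Itga4 UMIs in Angptl4+/+ and 8 on each day in Angptl4-/- wounds, with intervals that spanned 0, and in these clusters Itgb7 had 1 to 4 UMIs per library and intervals that spanned 0. After thinning to 1000 UMIs, cells with an Itga4 UMI were 1.06% (0.76% to 1.44%), 5.45% (4.61% to 6.40%), 1.36% (1.01% to 1.79%) and 5.80% (5.04% to 6.64%), with exact 95% intervals. The unthinned shares were 4.66%, 13.4%, 4.38% and 12.7%. No class here should lack Itga4, so genes of other classes were used as a gauge of free RNA: C1qa, Ms4a7 and Arg1 were in neutrophil-like cells at 0.109% to 0.717% of their macrophage-like level and Apoe at up to 2.09%, while Itga4 stood at 20.7% to 59.6%, Itgax at 103% to 162% and Itgb7 at 1.76% to 18.7% of theirs. Against monocyte-like cells, where Itga4 and Itgb7 were high, the neutrophil-like level was 2.46% to 11.03% for Itga4 and 0.901% to 4.56% for Itgb7, beside 7.37% to 31.7% for Ly6c2, 2.17% to 7.22% for Plac8 and at most 0.883% for Adgre4 and Ace. By library, Itga4 stood at 2.85%, 11.03%, 2.46% and 10.4% of the monocyte-like level, and Itgb7 at 0.901%, 4.56%, 0.989% and 4.40%. Ly6c2 stood at 20.6%, 11.8%, 31.7% and 7.37%, and Plac8 at 5.35%, 3.12%, 7.22% and 2.17%. Itga4 was above both Ly6c2 and Plac8 in the Angptl4-/- 5 dpw library. In every library Itga4 and Itgb7 were above Adgre4 and Ace. The part of free RNA in the Itga4 and Itgb7 levels was not tested.

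Macrophage-like cells changed 5 members with time in each genotype. Itgax rose from 11.5 to 47.3 CPM (2.05 [1.74, 2.36]) in Angptl4+/+ and from 9.14 to 50.9 CPM (2.48 [2.06, 2.92]) in Angptl4-/- wounds. Itga4 rose from 44.3 to 112 CPM (1.34 [1.18, 1.51]) and from 55.2 to 112 CPM (1.02 [0.84, 1.21]). Itgal rose from 28.5 to 45.1 CPM (0.66 [0.45, 0.88]) and from 36.9 to 53.3 CPM (0.53 [0.29, 0.78]).

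Itgb7 went the other way, from 118 to 57.8 CPM (-1.03 [-1.16, -0.89]) and from 115 to 52.4 CPM (-1.13 [-1.31, -0.95]), and both 5 dpw libraries lay below both 1 dpw libraries. Cd44 fell by 0.72 [-0.75, -0.68] on the log2 scale in Angptl4+/+ and had a ratio of -0.49 [-0.54, -0.45] in Angptl4-/- cells. Itgam fell by 0.64 [-0.70, -0.58] in Angptl4-/- and had -0.29 [-0.33, -0.24] in Angptl4+/+ cells. Itgb2 (0.11 and 0.01), Selplg (-0.01 and -0.12) and Icam1 (0.08 and -0.11) stayed near 0.

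The 3 members that rose (Itgal, Itgax, Itga4) compare with 23.9% of 8859 genes in Angptl4+/+ and 17.8% of 7902 genes in Angptl4-/- cells, and the 2 that fell in each with 11.4% and 12.4%. The members' medians were 0.08 and -0.11 beside all-gene medians of 0.15 and 0.07. Under TMM, 17.0% of genes were higher and 15.9% lower in Angptl4+/+ and 13.6% and 16.3% in Angptl4-/- cells. The same 5 members were called in Angptl4+/+ cells, whereas in Angptl4-/- cells Itgal (0.43) was no longer called and Cd44 (-0.59) was. Within the 3 macrophage-like clusters Itgax and Itga4 were higher at 5 dpw in each, and Itgb7 lower in each, in both genotypes. In 7 finer sub-clusters there were exceptions: Itgax of the largest (986 cells) had 7.09 and 3.95 CPM in Angptl4+/+ wounds on 6 and 9 UMIs, and Itga4 of another (406 cells) had 52.8 and 49.7 CPM in Angptl4-/- wounds, both with intervals that spanned 0. Itgal, which rose in the class as a whole, was higher at 5 dpw in only 2 of the 3 clusters in each genotype. In the remaining cluster its log2 ratios were -0.25 in Angptl4+/+ and -0.81 in Angptl4-/- wounds, on 32 to 93 UMIs per library. Thinned shares of cells with an Itgb7 UMI were 9.71% (8.02% to 11.6%), 5.09% (4.04% to 6.32%), 9.97% (7.96% to 12.3%) and 4.55% (3.06% to 6.46%), at median depths of 6842, 8319, 5833 and 11524.5 UMIs (42.9%, 27.2%, 37.9% and 32.3% unthinned). In neutrophil-like cells, the class with the lowest level, where the gene rose instead, the thinned shares were 0.337%, 0.812%, 0.109% and 1.06%.

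In the smaller classes no calls were counted. Monocyte-like cells had higher Itgal at 5 dpw, 182 to 456 CPM (1.32 [1.14, 1.51]) in Angptl4+/+ and 217 to 409 CPM (0.92 [0.73, 1.10]) in Angptl4-/- wounds, and their Itgax ratios were 2.13 [1.19, 3.14] and 1.54 [0.68, 2.46] on 14 to 38 UMIs per library. Dendritic cell-like cells had lower Cd44 (-0.82 [-0.96, -0.67] and -0.71 [-0.88, -0.55]) and lower Itgam (-0.84 [-1.10, -0.59] and -1.02 [-1.33, -0.71]). For these genes both genotypes moved the same way. The dendritic cell-like class was mixed differently by day: a sub-cluster led by Mmp12 and Clec4e, with 610 CPM of Cd44 and 216 CPM of Itgam, was 24 of 109 and 13 of 87 cells at 1 dpw and 30 of 308 and 24 of 207 at 5 dpw. Within that sub-cluster the Cd44 ratios were -0.98 [-1.28, -0.69] and -0.79 [-1.12, -0.46] and the Itgam ratios -0.93 [-1.42, -0.46] and -0.84 [-1.43, -0.25], whereas Cd44 of mature DC-like cells had -0.01 [-0.27, 0.26] in Angptl4+/+ and -1.43 [-1.75, -1.11] in Angptl4-/- wounds. The part of the shift in makeup in these ratios was not tested.

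NK cell/T cell-like cells had lower Itga4 at 5 dpw (-1.22 [-1.54, -0.90] and -0.67 [-0.98, -0.35]), lower Cd44 (-1.21 and -0.78) and lower Itgam (-1.93 [-2.42, -1.42] and -2.17 [-2.58, -1.75]). These ratios rested on 36 cells in each 1 dpw library, against 226 and 220 at 5 dpw, and the makeup of the class differed between the days. A cycling sub-cluster with 146 CPM of Itga4 was 1 and 2 cells at 1 dpw and 47 and 37 at 5 dpw, and T cell-like cells with 71.4 CPM were 2 and 4 and then 28 and 36. Within NK cell-like cells alone the Itga4 ratios were -0.62 [-1.11, -0.11] and -0.62 [-1.05, -0.17], and the part of the shift in makeup was not tested. Neutrophil genes moved with them: S100a8, S100a9, Retnlg, Csf3r and Cxcr2 were in these cells at 7% to 15.3% of their neutrophil-like level at 1 dpw and at 0.602% to 3.64% at 5 dpw, while Itgam was at 30% and 42.9% and then at 10.5% and 11.2%. Their part in the lower Itgam and Cd44 was not tested.

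Between genotypes, no member passed the threshold in the 2 large classes taken as a whole. In neutrophil-like cells at 1 dpw 0 of 8 members with enough UMIs (Itgb7 had too few) were higher or lower in Angptl4-/-, beside 1.36% of genes higher and 5.41% lower. At 5 dpw it was 0 of 9, beside 2.46% and 5.75%. In macrophage-like cells it was 0 of 9 at 1 dpw, beside 3.08% and 2.58%, and 0 of 9 at 5 dpw, beside 2.63% and 4.76%. For so few genes a count of 0 is near the background. With TMM the all-gene split in neutrophil-like cells was 2.66% higher and 2.57% lower at 1 dpw and 3.96% and 3.12% at 5 dpw, and again 0 members were called. Single clusters could differ from their class. At 5 dpw Itgax was called higher in Angptl4-/- in 1 macrophage-like cluster (36.9 and 92.5 CPM in Angptl4+/+ and Angptl4-/-). In another it was called lower (48.7 and 34 CPM). Over the class its ratio was 0.11. Cd44 was called higher and Itgam lower in 1 macrophage-like cluster each at 5 dpw. In neutrophil-like cells Itgax and Itga4 at 1 dpw and Icam1 at 5 dpw were called lower in 1 cluster each. The share of all genes called was not computed for single clusters. Whether these few calls exceed the background is therefore not known.

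Below the threshold, macrophage-like cells at 5 dpw had genotype ratios with narrow intervals away from 0 for Itgam and Cd44. Itgam was 672 CPM in Angptl4+/+ and 516 CPM in Angptl4-/- wounds (-0.38 [-0.44, -0.33]). Cd44 was 777 and 980.3 CPM (0.34 [0.29, 0.38]). At 1 dpw the same genes had ratios of -0.03 [-0.09, 0.02] and 0.11 [0.07, 0.15], closer to 0 for both genes. Within the 3 clusters the 5 dpw ratios ran from -0.53 to -0.14 for Itgam and from 0.23 to 0.60 for Cd44. The makeup of the class also differed at 5 dpw. The sub-cluster with the highest pooled Itgam (977 CPM) was 417 of 1559 cells in Angptl4+/+ and 95 of 650 in Angptl4-/- wounds. The part of this difference in the ratios was not tested.

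Itgal was higher in Angptl4-/- cells of both classes on both days, by 0.16 [0.08, 0.24] and 0.25 [0.14, 0.35] in neutrophil-like and by 0.37 [0.10, 0.64] and 0.24 [0.05, 0.42] in macrophage-like cells. The classes with most Itgal did not share this. Monocyte-like cells had 0.25 [0.05, 0.45] and -0.16 [-0.33, 0.01], and NK cell/T cell-like cells -0.24 [-0.72, 0.23] and -0.18 [-0.37, 0.002]. These ratios were all under the threshold, and with single libraries they cannot be told apart from differences between mice. Medians over the members were -0.01 and 0.08 in neutrophil-like and 0.10 and -0.01 in macrophage-like cells, beside all-gene medians of -0.09, -0.07, 0.02 and -0.02. In the smaller classes, Itgal in dendritic cell-like cells at 5 dpw (0.68 [0.23, 1.13], 94 and 80 UMIs) and Icam1 in NK cell/T cell-like cells at 1 dpw (-1.14 [-2.06, -0.27], 17 and 36 UMIs) were apart on few counts. So were Selplg (-0.60 [-0.95, -0.25], 117 and 171 UMIs) and Itgam (0.54 [0.01, 1.08], 77 and 51 UMIs) in NK cell/T cell-like cells at 1 dpw. That class held 36 cells in each 1 dpw library.

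**Figure D3:**
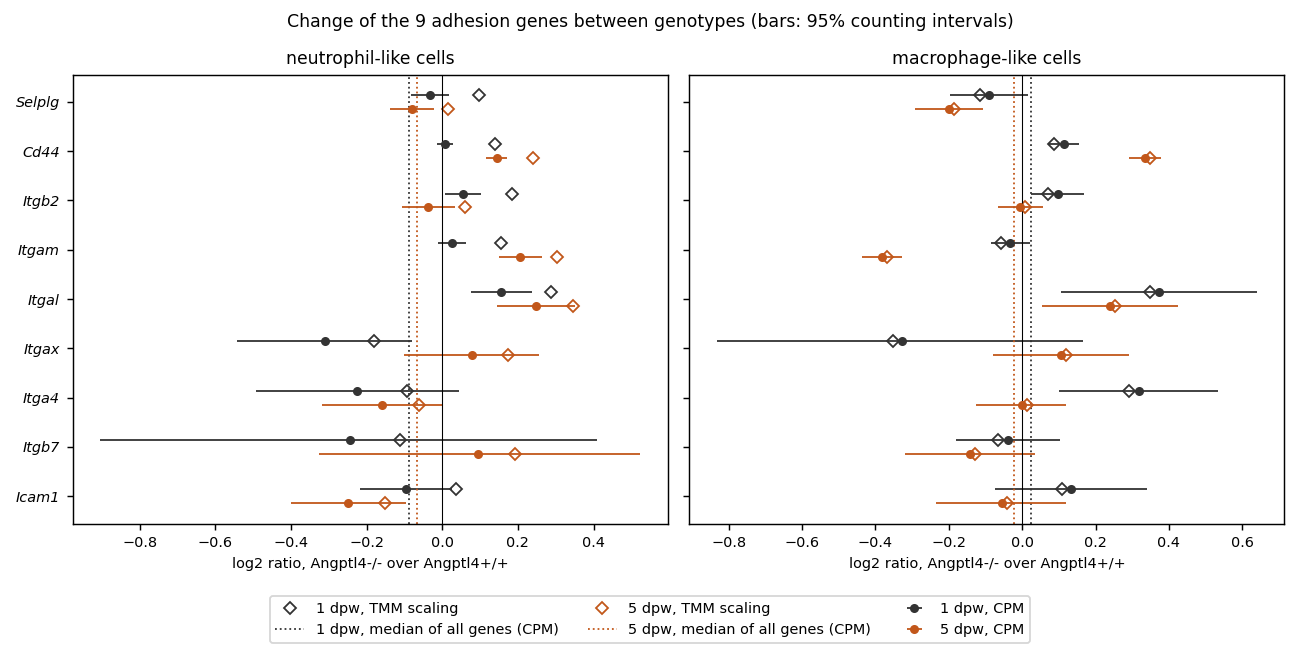
Log2 ratio of CPM in Angptl4-/- over Angptl4+/+ for each member at 1 and 5 dpw, in neutrophil-like and macrophage-like cells; filled points with bars are CPM ratios with 95% counting intervals, open points TMM-scaled ratios, dotted lines the medians of all genes. CPM ratios lay between -0.38 (Itgam, macrophage-like, 5 dpw) and 0.37 (Itgal, macrophage-like, 1 dpw).

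The neutrophil-like cells were split into a Cxcr2-high subset (7804 cells) and a Cxcr2-low subset (5978 cells) by k-means on components that did not contain the adhesion genes. Median depths were 3218.5 to 5302 UMIs in the first and 3216.5 to 4137.5 in the second. Icam1 lay in the Cxcr2-low subset, at 126, 118, 128 and 104 CPM against 21.4, 42.4, 14.6 and 32.5 CPM in the other, with log2 ratios of 2.55, 1.48, 3.13 and 1.68. Every interval of these ratios lay above 1. Tnf, an inflammatory cytokine gene that was not left out of the components, had ratios of 2.26 to 2.73.

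Selplg, Itgal and Itga4 had higher levels in the Cxcr2-high subset of each library. Selplg had 417, 693, 402 and 612 CPM there against 209, 228, 213 and 268 CPM (ratios -0.99, -1.61, -0.91 and -1.19). Itgal had 162, 205, 177 and 241 CPM against 62.3, 56.1, 74.7 and 68.9 CPM (-1.38, -1.87, -1.24 and -1.80). Itga4 ratios were -3.07, -2.04, -1.84 and -1.67, on as few as 17 UMIs.

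Cd44 was nearly even between the subsets, with ratios from 0.10 to 0.31 in favour of Cxcr2-low cells, and Itgam and Itgb2 were between -0.39 and -0.10. Itgax ratios ran from -0.35 to 0.14, and Itgb7 ratios from -1.17 to -0.10 on 13 to 89 UMIs, with an interval that left out 0 in the Angptl4-/- 5 dpw library only. Of the members, 1 of 9 (Icam1) was above in all 4 libraries of the Cxcr2-low subset, where 15.6% of 7819 genes were, and 2 of 9 (Selplg, Itgal) were below, where 10.6% were. Itga4 ratios were low within each library, but its 1 dpw levels in the Cxcr2-high subset overlapped with 5 dpw levels in the other.

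The day ratios of Icam1 and Selplg differed in value between the subsets, a difference that was not tested. Icam1 had ratios in Cxcr2-high cells of 0.98 [0.71, 1.25] and 1.16 [0.86, 1.45] in Angptl4+/+ and Angptl4-/-, and in Cxcr2-low cells its ratios were -0.09 [-0.26, 0.07] and -0.30 [-0.45, -0.14]. Selplg had 0.73 [0.67, 0.80] and 0.61 [0.55, 0.67] in the first and 0.12 and 0.33 in the second. These are CPM ratios, and TMM scaling was not run on the subsets. Over all neutrophil-like cells TMM turned the day ratios of Selplg to -0.24 and -0.33 and those of Icam1 to -0.42 and -0.61. The direction of the subset ratios on that scale is therefore not known. Itga4 was higher at 5 dpw in both subsets, by 2.35 and 2.47 in Cxcr2-high and by 3.38 and 2.65 in Cxcr2-low cells.

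**Figure D4:**
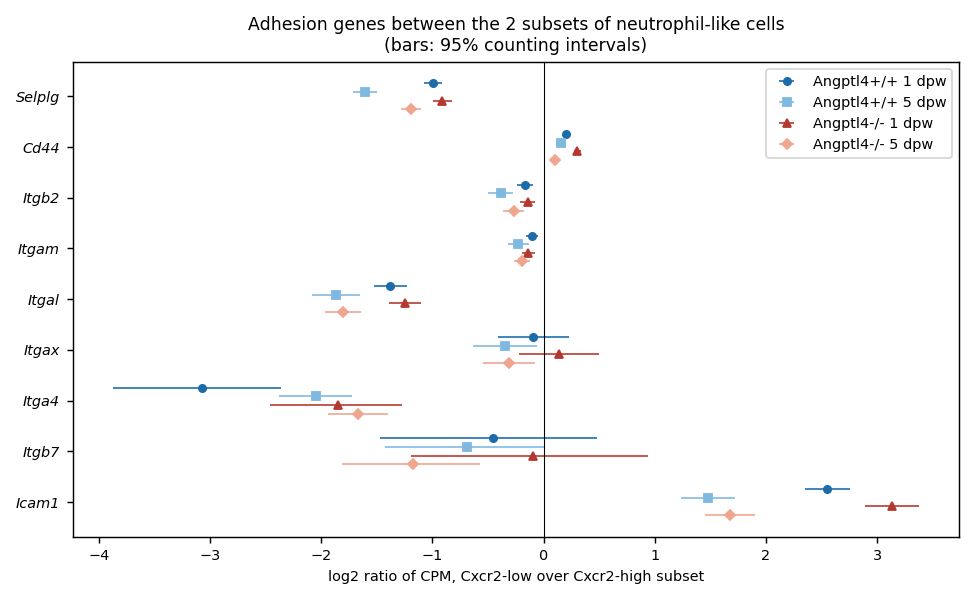
Log2 ratio of CPM in the Cxcr2-low over the Cxcr2-high subset of neutrophil-like cells within each library, for the members; bars are 95% counting intervals. Icam1 lay right of 1 in all 4 libraries, and Selplg, Itgal and Itga4 lay left of 0.

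Finer populations of the other classes were described with libraries pooled. The 324 mature DC-like cells, made of a sub-cluster led by Apol7c and Fscn1 and one led by Ccl22 and Ccr7, had low levels of the beta 2 family: Itgb2 25.9 CPM (21.2 to 31.3), Itgam 17.9, Itgal 7.51 and Itgax 23 CPM. The same cells were high in Itga4 (548 CPM, 526 to 571), Itgb1 (517 CPM), Icam1 (216 CPM, 202 to 231) and Selplg (626 CPM). In contrast, the 140 cDC2-like cells had Itgax 166, Itgam 173 and Itgb2 222 CPM with Itga4 at 57.6 CPM. Their Itgal was as low as that of mature DC-like cells, at 6.60 CPM (3.61 to 11.1).

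The 123 cDC1-like cells differed from both by Itgb7 at 266 CPM (244 to 290) and Itgal at 60.7 CPM. Their pooled Itga4 level was 183 CPM, but by library it was 532, 110, 221 and 149 CPM. The first of these values rested on 14 cells and lay within the mature DC-like range of 516 to 557 CPM. In the 33 cells of a sub-cluster led by Siglech, Selplg was at 965 CPM (866 to 1072) and Itgal at 198 CPM. Dendritic cell-like averages of these genes were therefore mixtures. For example, Itgax of the whole class was 54.6 to 90.8 CPM, between mature DC-like and cDC2-like cells.

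Among lymphocytes, 161 NK cell-like cells had Itgal 327 CPM (294 to 363), Itga4 406 CPM (369 to 445) and Itgax 77.5 CPM, and 70 T cell-like cells, led by gamma-delta T cell genes, had Itgb7 352 CPM (304 to 404), Cd44 502 CPM and Itga4 71.4 CPM. An unnamed sub-cluster of 42 cells led by Il10, Areg and Foxp3 had Itgb7 at 504 CPM (430 to 587). Another of 38 cells led by Igfbp4, Dapl1 and Lef1 had Cd44 at 34.1 CPM on 8 UMIs, the lowest Cd44 level of all populations and sub-clusters described.

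Macrophage-like sub-clusters varied most in Itgax. It was 132 CPM (120 to 144) in the sub-cluster led by Retnla, which also leads with mast cell genes from a few cells, and 7.34 CPM (5.02 to 10.4) in that led by Mcpt8, a basophil gene carried by a few cells, and Tppp3. The latter had Itgam at 977 CPM (948 to 1007). Cd44 ran from 612 CPM in the sub-cluster with Cbr2, Ccl8 and C1qa to 1409 CPM in that with Mt2, Ptges and Inhba. These are pooled values, and the order was not the same in each library: the Mcpt8 sub-cluster had the highest Cd44 level at 1 dpw (1842 and 2273 CPM), and a sub-cluster led by Cxcl10 the lowest in the Angptl4-/- 5 dpw library (511 CPM). Itgb2 varied less, from 325 to 559 CPM.

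**Figure D5:**
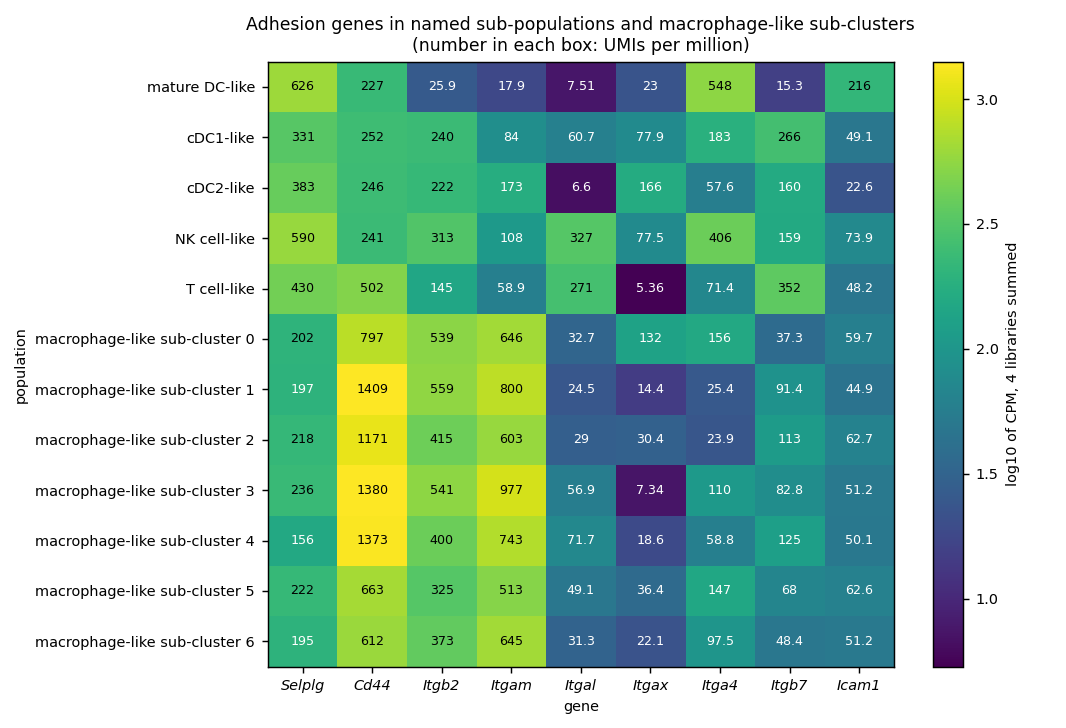
Pooled level of each member in the named finer populations and sub-clusters, in CPM (number in each box), with the 4 libraries summed; the colour gives log10 of the level. Mature DC-like cells were high in Itga4, Icam1 and Selplg and low in Itgb2, Itgam and Itgb7. Their Itgal was low too, as it was in cDC2-like cells.

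The same threshold was applied to the 78 other adhesion genes. In neutrophil-like cells from 1 to 5 dpw, 12 of 43 with enough UMIs rose and 2 fell in Angptl4+/+, and 18 of 44 rose and 2 fell in Angptl4-/- wounds, below the 58.7% and 60.5% of all genes. Dok1, an adaptor that restrains integrins, rose by 2.14 and 1.97, and Itgb2l, a neutrophil paralog of Itgb2, had ratios of -2.58 and -3.46. Spn (CD43; 1.04 and 1.41), Rdx (a membrane-cytoskeleton linker; 1.22 and 1.60), Tpst2 (an enzyme that sulfates PSGL-1; 1.02 and 1.23) and Itgb1 (0.98 and 0.99) rose as well, but with TMM factors Itgb1 had 0.22 and 0.19, Tpst2 0.26 and 0.43, Rdx 0.46 and 0.81 and Spn 0.28 and 0.61.

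In macrophage-like cells 17 of 51 genes rose and 8 fell in Angptl4+/+ wounds, beside 23.9% and 11.4% of all genes. In Angptl4-/- wounds 7 of 47 rose and 8 fell, beside 17.8% and 12.4%. Itga1 (-2.50 and -1.85), a collagen receptor chain, Pecam1 (-1.53 and -1.17) and Cd24a (-1.52 and -1.47) fell. Itga9 (2.17 and 1.69), a chain that binds matrix ligands such as tenascin-C, and Cd2 (1.66 and 1.40) rose, but with a mean of each cell's CPM the Cd2 ratio in Angptl4-/- wounds was -0.16. Icam2, a low gene that also binds LFA-1, had 4.12, 8.69, 2.76 and 6.48 CPM there and was among those that rose in Angptl4+/+ wounds.

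Between genotypes 1 of 42 other genes rose and 1 fell in neutrophil-like cells at 1 dpw, beside 1.36% and 5.41% of all genes, and 0 of 44 rose and 2 fell at 5 dpw, beside 2.46% and 5.75%. In macrophage-like cells 2 of 46 rose and 1 fell at 1 dpw, beside 3.08% and 2.58%, and 1 of 50 rose and 3 fell at 5 dpw, beside 2.63% and 4.76%. All these counts were near the background. F11r, which encodes the junctional molecule JAM-A, was called lower in Angptl4-/- macrophage-like cells on both days. Its levels were 46.6, 124, 23.6 and 48.6 CPM, ratios of -0.98 at 1 dpw and -1.35 at 5 dpw.

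Over the 20 sums of 5 classes in 4 libraries, the genes with the profile most like each member among 8717 genes were found by Pearson's r of log2(CPM + 1). Cd44 was followed by Ptpn12 (r = 0.99), Atp6v1e1 and Clec4e, Itgam by Cd93 (0.97), Pla2g7 and Slc11a1, and Itgb2 by Mpp1 (0.96), Dusp6 and Vsir. Itgal was most like Ptprc (0.96), Il16 and Arhgap9, Itga4 like Foxn3 (0.97), Foxp1 and Mycbp2, and Itgb7 like Casp2 (0.98), Krtcap2 and Emg1. Selplg was most like Tgif2 (0.92), Rhof and Zeb1, Icam1 like Serinc5 (0.85), Tmem131l and Fbrsl1, and Itgax like Bcl2a1b (0.80), Bcl2a1d and Cd81. Bcl2a1b and Bcl2a1d are near-identical copies, so their counts are uncertain.

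Among the members, Cd44 and Itgam had r = 0.91, Itga4 and Itgb7 0.84, Itgb2 and Itgam 0.84, and Selplg and Itgb2 -0.74. The 20 sums share classes, libraries and depth, so these values describe the profiles only.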

How the data were processed

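CD45+ cells sorted from wounds were measured in 4 libraries, grouped by the labelled genotype and day. The authors deposited UMI counts per gene and barcode as matrices. Per the submitters' processing notes they used Cell Ranger 3.1.0 with mm10 and Seurat 3.0. Gene coordinates are from GENCODE M21, promoters from RefSeq.

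From the deposited counts, cells were kept where 200 or more genes were detected and mitochondrial UMIs made up no more than 10%. Libraries were joined with Seurat 5.3.0 anchors (R 4.3.3) and clustered at resolution 0.5, with members and other adhesion genes left out of the variable genes. Clusters were named from marker lists. Scrublet scores were computed (scanpy 1.11.5). The automatic threshold called 0 to 3 cells per library, so the top 4% of scores were taken as doublets. They were kept, and left out as an alternative. UMIs were summed per class and library. Levels, log2 ratios, the threshold of 0.5 in size, and a minimum of 100 UMIs over the 2 sums together are as in the report, and no p-value was computed, because each condition is 1 library. TMM factors came from edgeR 4.0.16. Calls and interval coverage were tried on simulated Poisson counts, the model that the intervals assume. This check therefore cannot tell how the calls behave with variation between cells or mice. Shares of cells were taken after thinning to 1000 UMIs per cell.

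The 9 members were always named. Of the other adhesion genes, at most 6 per class and kind of contrast were named, those called the same way in both genotypes or on both days, with Itgb1, Itgad, Itgb2l and Icam2 added (1 further gene of this rule is not reported here), and the 3 most similar genes of each member with at least 500 UMIs. The members and lists were chosen with earlier results of these data known. Alternatives were TMM scaling, stricter cell filters, resolution 1.0, no integration, doublets left out, a mean of each cell's CPM, no UMI minimum, unthinned cells and, added after the data were seen, macrophage-like cells without mast cell or basophil genes.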

Additional observations from a re-analysis of the deposited data

Results flagged for a closer look

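The day ratio of Itga4 went in opposite directions between classes in both genotypes. In Angptl4+/+ wounds the log2 ratio of 5 over 1 dpw was 3.55 greater in neutrophil-like than in NK cell/T cell-like cells and 2.57 greater in macrophage-like than in NK cell/T cell-like cells. In Angptl4-/- wounds these differences were 3.06 and 1.69. With 1 library per condition the difference was not tested, and the NK cell/T cell-like value rested on 36 cells at 1 dpw in each genotype. The makeup of that class differed between the days, and its part was not tested. Neutrophil genes were higher in those 1 dpw cells, but neutrophil-like cells had 11.4 to 66.9 CPM of Itga4, beside 160 to 374 CPM in NK cell/T cell-like cells.

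Itgb7 rose in neutrophil-like and fell in macrophage-like cells, a difference of 2.97 log2 units in Angptl4+/+ and 3.41 in Angptl4-/- wounds. It was not tested either, and the neutrophil-like levels were 9.78 CPM or less.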

How the results depend on the processing

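No paired analysis was possible because each condition is 1 library. Of the values that answer a comparison, 3 moved: with TMM scaling 7 members passed the threshold in Angptl4+/+ and 8 in Angptl4-/- neutrophil-like cells from 1 to 5 dpw (4 and 3 with CPM), and with doublets left out 1 member, Itgal, passed between genotypes in macrophage-like cells at 1 dpw. No other count of members past the threshold moved by over 1.5 times, nor any count of members above and below added together, with stricter cell filters, resolution 1.0, no integration, no UMI minimum or without cells carrying mast cell or basophil genes. Taken apart, the members of monocyte-like cells below macrophage-like ones went from 2 to 1 without integration (Cd44 lost), and those of neutrophil-like cells above them from 3 to 6 and below them from 2 to 1 with TMM. Among single genes, the day ratio of Selplg in Angptl4+/+ neutrophil-like cells turned to -0.24 with TMM, and that of Cd2 in Angptl4-/- macrophage-like cells to -0.16 with a mean of each cell's CPM. The causes were not tested. TMM moved 46 of 120 single-gene values beyond their counting interval, the mean of each cell's CPM 28, resolution 1.0 8, and stricter cell filters 1, while no integration and leaving out doublets moved none. Shares of cells with a UMI depended on depth: without thinning 43 of them moved and 2 stayed the same. The rises of Itgax and Itga4 in both classes and of Itgb7 in neutrophil-like cells, and the fall of Itgb7 in macrophage-like cells, stayed past 0.5 under every alternative run. Depth limits mainly Itgb7 in neutrophil-like cells, Itgax in monocyte-like cells and all members of NK cell/T cell-like cells at 1 dpw.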
